A study of Mus musculus with 4 samples.

Results

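The colony-stimulating factors are secreted proteins through which many tissues, and many carcinomas, direct the production and survival of myeloid cells. The genes described here are the 3 ligands Csf1, Csf2 and Csf3 and the 6 receptor genes Csf1r, Csf2ra, Csf2rb, Csf2rb2, Csf3r and Il3ra, 9 of the 55385 genes listed. They were taken by name, by joining Ensembl identifiers without their version to mouse symbols, and Csf2rb2 was set beside its paralog Csf2rb because the large difference of Csf2rb2 between these same libraries was already known. The family was thus chosen by a value of the contrast of resistant with control cells itself, the fitted change of Csf2rb2. Values of that contrast for the 9 genes are given as a description, with fitted changes, standard errors and whether the fit over all genes called them, but with no p-value.

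CSF1, also called M-CSF, signals through the receptor tyrosine kinase encoded by Csf1r, which also binds interleukin 34. CSF3, or G-CSF, signals through homodimers of the Csf3r product. CSF2, or GM-CSF, needs a ligand-specific alpha chain encoded by Csf2ra together with the beta common chain encoded by Csf2rb, which also serves the interleukin 3 and interleukin 5 receptors and activates the kinase Jak2 and the transcription factors Stat5a and Stat5b. Mice carry an additional copy, Csf2rb2, whose product pairs with the interleukin 3 alpha chain encoded by Il3ra and serves interleukin 3 alone.

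The cells were 4TO7, a mouse mammary carcinoma line, recovered from Balb/c mouse tumors by enzymatic digestion. The resistant group, 2 libraries, derives from tumors that resisted immunotherapy with an antibody against PD-L1, and the control group, also 2 libraries, from control tumors. The treatment label of both groups reads untreated, while the treatment protocol of both groups names the antibody in vivo, so what the control tumors received could not be resolved. Not given in the sources used here are age, genetic changes and any pooling of animals. Bulk RNA was sequenced to 45666470 to 49592054 counted reads per library. The labels do not tie a group's libraries to different animals, so errors and p-values describe only how far these 4 libraries spread, which may be technical.

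The label of the cells was checked against markers. The luminal keratin Krt8 averaged 16206 ± 1512 normalized counts in resistant cells and 16883 ± 5987 in control cells (SD, n = 2 each), and the basal keratins Krt5 and Krt14 were at 0 in all 4 libraries. Of 6 tested mammary carcinoma markers 1 fell, the epithelial adhesion gene Epcam, with 87.6 and 114 normalized counts in resistant cells, against 341 and 246 in control cells. The leukocyte antigen gene Ptprc had 0 and 2.15 normalized counts in resistant cells and 1.92 and 1.01 in control cells. Of 16 macrophage and monocyte markers, 14 stayed below 20 normalized counts in every library, and Tyrobp, C1qa and C1qc were at 0 throughout. Their summed level was 10813 to 11286 in resistant and 4962 to 7538 in control cells, almost all of it Cd68, which rose (log2 fold change 1.18 ± 0.27, SE), and Cd14, which fell (-0.92 ± 0.20). The neutrophil markers Mpo, Cxcr2 and S100a9 were at 0 throughout, and the summed neutrophil list, mostly S100a8, was 398 to 403 in resistant and 433 to 824 in control cells. Dendritic, mast cell and eosinophil markers summed to 45.9 to 71.9 in resistant and 322 to 331 in control cells, nearly all Zbtb46, and 10 T, B and NK cell markers to 8.58 to 10.2 in resistant and 5.04 to 8.65 in control cells. Fibroblast markers, led by Pdgfra, summed to 7492 to 8951 in resistant and 6522 to 9505 in control cells, and endothelial markers, led by Vwf with Cdh5 and Kdr near 0, to 171 to 233 in resistant and 48.4 to 80.7 in control cells. Of 4 tested fibroblast markers 1 rose and 1 fell, and of 2 tested endothelial markers 1 rose. The 1 tested marker of the dendritic, mast cell and eosinophil list fell. Of all tested genes 5.32% rose and 4.73% fell. What part the markers that differ have in the values below was not tested. In bulk RNA, fewer cells of a type and less RNA per cell cannot be told apart.

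The 2 beta chain genes lie next to each other on opposite strands, and the sequences below show how alike they are. Csf2rb2 (ENSMUSG00000071714.7) spans chr15:78282507-78305721 on the minus strand and Csf2rb (ENSMUSG00000071713.6) spans chr15:78325752-78353847 on the plus strand of GRCm38, the build that mm10 names. Their longest annotated coding sequences, of 2634 and 2688 bases in GENCODE M21, were identical at 95.2% of 2628 aligned bases. The longest run shared without a difference was 242 bases and lay within coding exons, at chr15:78284630-78284871 (minus strand) in Csf2rb2 and at chr15:78348577-78348818 (plus strand) in Csf2rb. It is printed once because it is the same in both genes, and the capitals mark a 62-base stretch that is annotated as the hairpin of the microRNA genes Mir7676-1 and Mir7676-2.
Shared run: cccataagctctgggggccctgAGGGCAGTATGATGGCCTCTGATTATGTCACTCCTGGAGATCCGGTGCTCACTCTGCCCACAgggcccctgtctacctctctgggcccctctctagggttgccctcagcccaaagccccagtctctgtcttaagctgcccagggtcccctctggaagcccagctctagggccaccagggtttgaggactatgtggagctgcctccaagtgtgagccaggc
The stretch that tells them apart best, by the number of differing bases in 60 aligned ones without a gap, had 13 differences, marked in capitals. It lies at chr15:78294379-78294438 (minus strand) in Csf2rb2 and chr15:78338893-78338952 (plus strand) in Csf2rb.
Csf2rb2: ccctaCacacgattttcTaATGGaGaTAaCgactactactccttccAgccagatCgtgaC
Csf2rb: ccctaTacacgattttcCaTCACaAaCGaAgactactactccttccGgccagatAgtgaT
The 250 bases before the Csf2rb2 start site, at chr15:78305722-78305971 (minus strand, RefSeq, GRCm38.p6), are shown because that gene had the largest fitted change of the 9.
Csf2rb2 promoter: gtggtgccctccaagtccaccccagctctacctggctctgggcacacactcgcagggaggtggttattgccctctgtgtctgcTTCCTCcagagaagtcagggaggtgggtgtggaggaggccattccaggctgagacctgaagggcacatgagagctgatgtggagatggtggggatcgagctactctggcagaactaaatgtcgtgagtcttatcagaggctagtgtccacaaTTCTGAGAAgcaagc
Capitals mark matches, on either strand, to the letters TTCNNNGAA, the spacing bound by STAT factors, at position -15 from the start site, and to GAGGAA, a core of Ets-family sites such as that of the myeloid factor PU.1, at position -167. The 2 matches do not overlap. Among 32851 promoter windows of the same length, 7.02% held the first motif and 23.3% the second. The AP-1 motif TGANTCA (6.75% of windows) and the 10-base NF-kappaB motif (1.41%) had no match in this window. A match is a run of letters and not evidence of binding.

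Of the 9 genes, 6 averaged 10 normalized counts or more across libraries and entered the limma fit across 14238 genes. Csf2rb and Csf2rb2 were called higher and Il3ra was called lower in resistant cells, and the 3 ligands were not called. At an adjusted p under 0.05, that fit called 5.32% of all tested genes higher and 4.73% lower, 10.1% in either direction. In all 6 genes the resistant libraries did not overlap the controls, which held for 56.7% of all tested genes. Since the contrast chose the genes, nothing is read from these shares. The median log2 fold change of the 6 was 0.26, against 0.0023 over all tested genes.

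**Figure D1:**
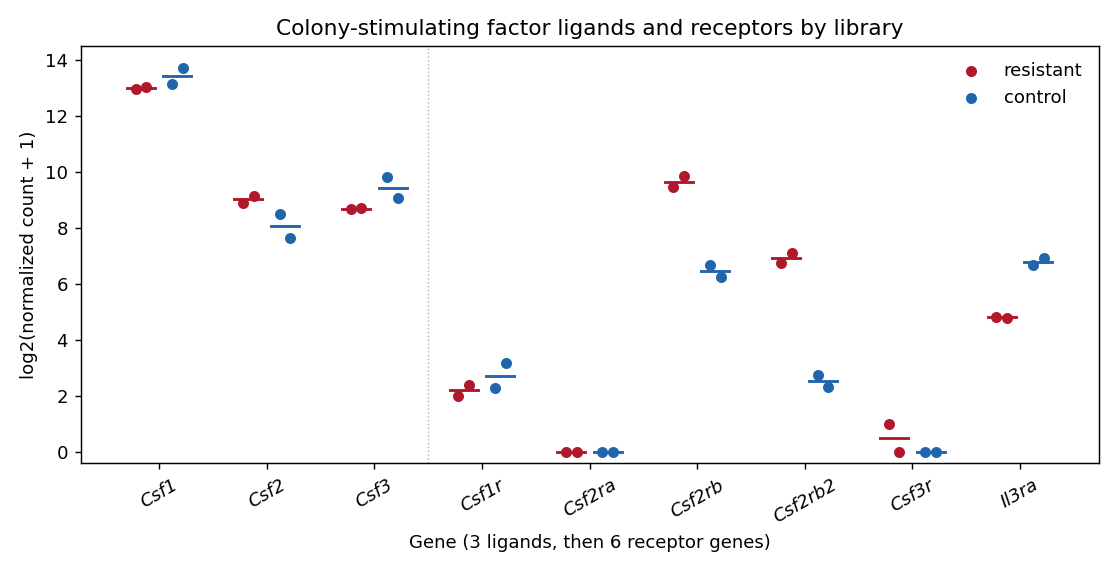
Expression of the 9 genes in each library, as log2(normalized count + 1) on the y axis, with 1 point per library, resistant in red left of control in blue, and a line at each group's mean. The 3 ligands were expressed in all libraries; among the receptors, Csf2rb and Csf2rb2 sat higher and Il3ra lower in resistant cells, and Csf1r, Csf2ra and Csf3r were at or near 0.

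Csf2rb, the beta common chain shared by 3 cytokine receptors, had 704 and 917 normalized counts in resistant cells, against 102 and 75.6 in control cells. Both resistant libraries stood far above both control libraries. The means were 811 ± 151 in resistant and 88.7 ± 18.5 in control cells (SD, n = 2 each), a ratio of 9.14, and the fitted log2 fold change was 3.18 ± 0.23 (SE). The alternative fits, with a library left out or not, gave values from 2.97 to 3.39. The call held in every one that kept all 4 libraries, but these reuse the data that chose the family.

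Csf2rb2, the interleukin 3 specific beta chain, had 108 and 136 normalized counts in resistant cells, against 5.76 and 4.03 in control cells. In reads that is 106 and 127 in resistant libraries and 6 and 4 in control libraries, so the gene was close to undetected in control cells. The means were 122 ± 19.9 in resistant and 4.90 ± 1.22 in control cells (SD, n = 2 each), so Csf2rb2 passed the filter only through its resistant values. Its fitted log2 fold change was 4.39 ± 0.36 (SE), with 1 added to each count; with 10 added it was 3.14, and the value of so low a gene depends on that addition. The ratio of reads, scaled for library size, was 24.7 with a 95% exact interval of 13.2 to 52.3, which covers counting error only.

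Because the copies are so alike, their reads were also added up and compared as a share. The pair summed to 933 ± 170 normalized counts in resistant cells and 93.6 ± 19.7 in control cells (SD, n = 2 each). Csf2rb2 made up 13.3% (exact 95% interval 11.0 to 15.9) and 12.9% (10.9 to 15.2) of the pair's reads in resistant replicates 1 and 2. In control replicates 1 and 2 it made up 5.36% (1.99 to 11.3) and 5.06% (1.40 to 12.5). The share was higher in both resistant libraries, but the control intervals, which rest on 112 and 79 reads, reach the lower end of the resistant ones. Among the distinct 100-base windows of the annotated transcripts, 6.82% of those of Csf2rb2 also occur in Csf2rb, and 4.63% of those of Csf2rb occur in Csf2rb2. With 50-base windows the shares are 18.4% and 12.3%. Among windows of the coding sequences alone they are higher, 11.3% and 11.0% at 100 bases and 26.6% and 26.2% at 50 bases. Not given in the sources used here are the read length and the handling of reads that match both genes, and the part of shared reads in the counts of Csf2rb2 was not tested. Mir7676-1 and Mir7676-2 had 0 reads in all libraries.

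**Figure D2:**
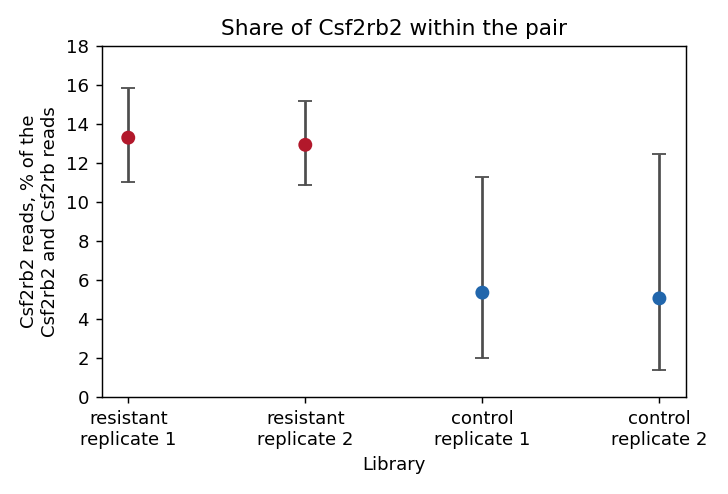
Reads of Csf2rb2 as a percentage of the reads of Csf2rb2 and Csf2rb together (y axis) in each library (x axis), with exact 95% intervals that cover counting error only. The resistant libraries stood at 13.3% and 12.9% and the control libraries at 5.36% and 5.06%, with intervals that touch.

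Of the alpha chains, only Il3ra had enough reads to be compared, and it did not follow the beta chains. Il3ra (ENSMUSG00000068758.8, chr14:14346275-14356011), the ligand-specific chain of the interleukin 3 receptor, had 27.5 and 26.8 normalized counts in resistant cells, against 101 and 120 in control cells. The groups were well apart and the resistant libraries nearly equal. Its log2 fold change was -1.98 ± 0.27 (SE), with means of 27.2 ± 0.495 in resistant and 110 ± 13.5 in control cells (SD, n = 2 each). The alternatives gave -2.10 to -1.69, and the call held in each that kept all 4 libraries, which are the same data fitted again.

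Csf2ra (ENSMUSG00000059326.7, chr19:61223957-61228429), the alpha chain that GM-CSF requires, had 0 reads in all 4 libraries. A count of 0 allows up to 3 reads per library, or 2.88 to 3.22 normalized counts. Reads of the beta common chain were thus counted in cells where no read of its GM-CSF partner was. Il5ra, the alpha chain for interleukin 5, had 0 reads in both resistant libraries and 1 read in 1 control library, and the ligand gene Il3 had 0 reads throughout. For Il5, 3 and 4 reads were counted in resistant and 3 and 1 in control libraries.

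The remaining 2 receptors were at the limit of detection. Csf1r (ENSMUSG00000024621.16, chr18:61100598-61132149), the CSF1 receptor and a marker of macrophages, had 3.06 and 4.29 normalized counts in resistant cells, against 3.84 and 8.07 in control cells, and the groups overlapped. Exons of Csf1r share 873 bases with Hmgxb3 on the other strand, a gene with 3951 to 4856 normalized counts, so reads of the 2 genes cannot be told apart there unless strand was used in counting, which the sources do not state. Csf3r (ENSMUSG00000028859.14, chr4:126024550-126044440), the CSF3 receptor of neutrophils, had 1 read in resistant replicate 1 and 0 in the other libraries.

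All 3 ligands were expressed in both groups. Csf1 (ENSMUSG00000014599.10, chr3:107741048-107760469), the macrophage growth factor, had 8082 and 8384 normalized counts in resistant cells, against 9001 and 13482 in control cells. Both resistant libraries were below both controls, but the control libraries differed from each other by more than control replicate 1 differed from the resistant cells. The log2 fold change was -0.42 ± 0.18 (SE), which was not called. It was -0.71 and -0.13 without control replicates 1 and 2, and -0.39 and -0.45 without resistant replicates 1 and 2.

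Csf2 (ENSMUSG00000018916.5, chr11:54247271-54249667), which encodes GM-CSF, had 473 and 567 normalized counts in resistant cells, against 360 and 200 in control cells. It was the 1 ligand with higher values in resistant cells, and its groups did not overlap. Its log2 fold change of 0.95 ± 0.28 (SE) was not called. Without control replicates 1 and 2 it was 1.37 and 0.52, and without resistant replicates 1 and 2 it was 1.08 and 0.82. The antisense gene Gm12223 shares 96 exon bases with Csf2 and had 12 reads in each resistant library and 10 and 3 in the control libraries.

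Csf3 (ENSMUSG00000038067.2, chr11:98701263-98703629), the granulocyte growth factor, had 408 and 419 normalized counts in resistant cells, against 894 and 539 in control cells. The resistant libraries were close together and below both controls, which were spread widely. The log2 fold change was -0.75 ± 0.24 (SE), which was not called. It was -0.38 and -1.11 without control replicates 1 and 2, and -0.73 and -0.77 without resistant replicates 1 and 2. The spread of the ligands thus lay in the control pair, where the library with the lower Csf1 had the higher Csf2 and Csf3.

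**Figure D3:**
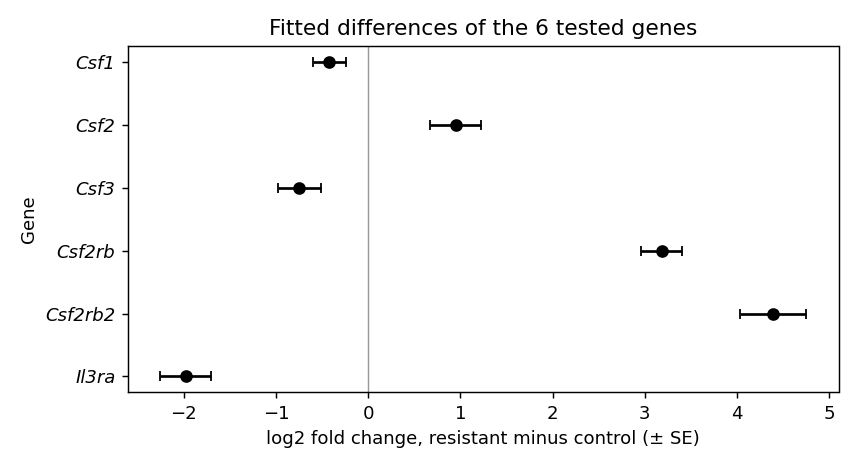
Fitted log2 fold change, resistant minus control, with its standard error (x axis) for the 6 genes that entered the fit (y axis). Csf2rb (3.18) and Csf2rb2 (4.39) lie far to the right, Il3ra (-1.98) to the left, and the ligands Csf1 (-0.42), Csf2 (0.95) and Csf3 (-0.75) nearer to 0.

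Levels between genes were compared as normalized counts per kilobase of annotated exon. Csf1 was the most abundant of the 9 in both groups, at 1559 ± 40.5 per kilobase in resistant and 2129 ± 600.03 in control cells (SD, n = 2 each). In resistant cells the order below it was Csf2 (650.2), Csf3 (293), Csf2rb (111), Csf2rb2 (25.8), Il3ra (9.16) and Csf1r (0.636) per kilobase, and at each step both libraries of the higher gene exceeded both of the next. In control cells the order was Csf3 (507), Csf2 (350.0), Il3ra (37.2), Csf2rb (12.2), Csf2rb2 (1.03) and Csf1r (1.03) per kilobase. There the libraries of Csf3 and Csf2 overlapped, as did those of Csf2rb2 and Csf1r, so neither pair can be ordered. Per kilobase, Il3ra thus stood above both beta chains in control cells and below both in resistant cells. Its place above Csf2rb in control cells depends on the exon lengths, 2967 and 7277 bases. In normalized counts the control libraries of Il3ra (101 and 120) and Csf2rb (102 and 75.6) overlapped. Exon lengths join all annotated transcripts of a gene.

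Over the 4 libraries, the profiles most like that of Csf2rb2, by Euclidean distance between log2 values with each gene's mean removed, were those of the asialoglycoprotein receptor subunit Asgr2 (0.28), Sez6 (0.56), the slow skeletal troponin Tnni1 (0.58), Lingo3 (0.59) and the acyl-CoA synthetase Acsbg1 (0.63). Asgr2 had 35.7 and 48.3 normalized counts in resistant cells and 1.92 and 1.01 in control cells. Sez6 had 26.5 and 29.0 in resistant cells and 0 in both control libraries, and Lingo3 21.4 and 21.5 against 0.961 and 0. Asgr2, Sez6 and Lingo3 thus passed the filter only through their resistant values, and their distances depend on the added count. Tnni1 had 461 and 577 in resistant cells and 41.3 and 31.3 in control cells. Csf2rb itself was the 18th nearest gene, at a distance of 1.21. With 4 libraries in 2 groups such a likeness mostly restates the size of the change between the groups.

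The genes around the beta chain pair were examined next. Their values were not used to choose the pair, but they come from the same 4 libraries. Within 500 kb of either gene, 20 other genes were tested, and in limma 8 of them rose and none fell in resistant cells. At an unadjusted p under 0.05, 12 were higher and 0 lower. Limma voom on reads called 8 of the 20 higher and 0 lower, beside 645 higher and 771 lower of all tested genes. The share of all tested genes at that unadjusted threshold is not given, here or for the lists below. Nothing is therefore read from the unadjusted counts. The share called higher was 40.0%, against 5.32% of all tested genes and 15.6% of the 577 tested genes of chromosome 15, of which 2.6% were called lower. Mfng and Lgals2, with control means of 1.01 and 9.34, are among the 8 and passed the filter only through their resistant values, so the shares are given as a description. Among genes averaging 50 normalized counts or more over the 4 libraries, 6 neighbours and 611 genes in all were called higher. Rac2 and Ncf4, with control means of 12.2 and 25.9, passed that filter only through their resistant values as well, so it does not remove this limit. The median log2 fold change of the 20 was 0.46. Fewer of them rose without either resistant library, and more without either control library. Without control replicate 2, 1 neighbour was also called lower. With no filter on low values, 2 of the 20 were called higher. Over all genes the number called higher moved the same way in each of these fits.

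Among the neighbours that rose, Ncf4, a subunit of the phagocyte NADPH oxidase that lies on the far side of Csf2rb2, averaged 125 ± 0.104 normalized counts in resistant cells and 25.9 ± 8.15 in control cells (log2 fold change 2.26 ± 0.31, adjusted p = 0.00563, limma). Rac2, the hematopoietic Rac GTPase, averaged 88.7 ± 7.14 in resistant and 12.2 ± 3.06 in control cells (2.78 ± 0.33, adjusted p = 0.00328, limma). Cyth4, a leukocyte cytohesin, averaged 1303 ± 190 in resistant and 248 ± 103 in control cells (2.44 ± 0.28, adjusted p = 0.00245, limma). Il2rb, the beta chain of the interleukin 2 and interleukin 15 receptors, averaged 702 ± 65.3 in resistant and 347 ± 53.4 in control cells (1.02 ± 0.17, adjusted p = 0.0134, limma). The transmembrane protease Tmprss6, the Notch-modifying Mfng, the scaffold Card10 and the galectin Lgals2 also rose, by 1.89 ± 0.29, 3.62 ± 0.71, 0.64 ± 0.12 and 1.52 ± 0.38 on the log2 scale (SE). Mfng had 0 and 2.02 normalized counts in the control libraries, so its fitted value depends on the added count.

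The rise was not shared by every gene of the interval. Between Csf2rb and Tmprss6 lie the sulfur metabolism genes Tst and Mpst and the adaptor gene Kctd17, chosen here after their values were seen, with log2 fold changes of 0.13 ± 0.15, 0.02 ± 0.11 and 0.08 ± 0.19, none of which was called. C1qtnf6, between Il2rb and Rac2, was not called either (0.02 ± 0.20).

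**Figure D4:**
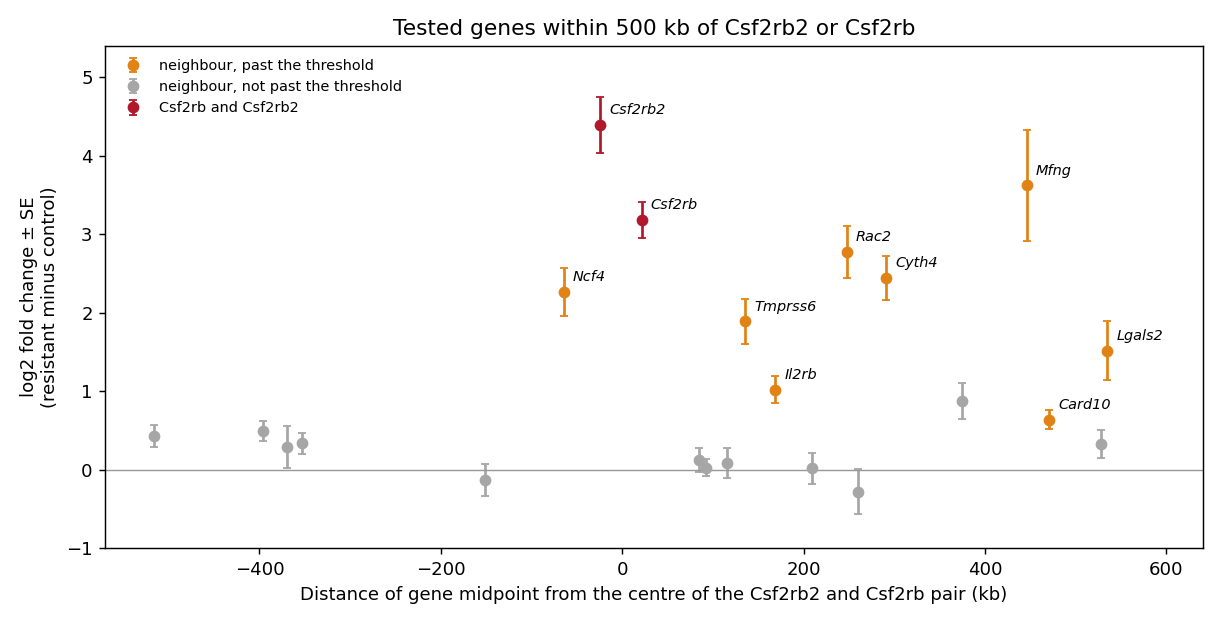
Fitted log2 fold change with its standard error (y axis) of the tested genes within 500 kb of Csf2rb2 or Csf2rb, by the distance of each gene's midpoint from the centre of the pair in kb (x axis). The pair is red, the 8 neighbours past the threshold are orange and the 12 others are grey; several grey genes near 0 lie between Csf2rb and the orange ones.

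Genes that carry the signal from these receptors were examined as a list of 36 kinases, adaptors, transcription factors, inhibitors and target genes. Of the 35 tested, 2 rose and 3 fell, counts near the 5.32% of all tested genes called higher and 4.73% called lower. At an unadjusted p under 0.05, 6 were higher and 9 lower, and the median log2 fold change was -0.13. Gab1, a docking adaptor of receptor signalling, had 61.1 and 83.7 normalized counts in resistant cells, against 654 and 665 in control cells (-3.19 ± 0.21, adjusted p = 0.000415, limma). The adaptor Shc1 (-0.71 ± 0.14, adjusted p = 0.024, limma) fell as well. Ywhaz, a 14-3-3 protein known to bind the beta common chain (0.52 ± 0.11, adjusted p = 0.0246, limma), and Myc (0.63 ± 0.14, adjusted p = 0.0299, limma) rose. Both lie on chromosome 15, as does the beta chain pair, where 15.6% of tested genes were called higher and 2.6% lower. No gene of the list rose when either resistant library was left out or with no filter on low values. More rose and more fell without either control library. The numbers over all genes moved the same way.

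Values of 6 genes of the Jak2 and Stat5 branch are given as a description, since they were singled out after their values were seen. None of the 6 was called, whereas Myc, a target gene of the same list, rose as given above. Jak2 averaged 4206 ± 211 normalized counts in resistant cells and 5358 ± 857 in control cells (SD, n = 2 each), with a log2 fold change of -0.34 ± 0.13. Stat5a and Stat5b had values of -0.38 ± 0.16 and -0.25 ± 0.13. The feedback inhibitor Cish, a direct Stat5 target, averaged 453 ± 76.3 in resistant and 502 ± 66.9 in control cells, with a log2 fold change of -0.15 ± 0.19. Socs2 (0.07 ± 0.17) and Pim1 (0.28 ± 0.20), are further targets. The most abundant genes of the list that were not called were the cyclin Ccnd1 (-0.19 ± 0.19) and the phosphatase Ptpn11 (-0.37 ± 0.10).

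Among 19 other ligands and receptors of the same families, 10 were tested, of which 1 rose and none fell in limma, as in limma voom, against 5.32% of all tested genes called higher and 4.73% called lower. At an unadjusted p under 0.05, 2 were higher and 0 lower, and the median log2 fold change was 0.09. Sdc1, a syndecan to which interleukin 34 can bind, averaged 13692 ± 1665 normalized counts in resistant cells and 7087 ± 211 in control cells (0.94 ± 0.12, adjusted p = 0.00386, limma). More genes of the list rose without either control library, as did more of all genes. Interleukin 34, the other ligand of the CSF1 receptor, was expressed in both groups at 2828 ± 184 in resistant and 2658 ± 446 in control cells and was not called. Kitl, the stem cell factor, and Il6st, the gp130 receptor chain, were the most abundant genes not called (0.09 ± 0.14 and -0.21 ± 0.11). The Kitl receptor gene Kit had 0 reads throughout.

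Of 34 other cytokine receptor subunits, 19 were tested, and 2 rose and 1 fell, beside 5.32% of all tested genes called higher and 4.73% lower. At an unadjusted p under 0.05, 4 were higher and 2 lower, and the median log2 fold change was -0.02. The genes that rose were Il12rb1, a subunit of the interleukin 12 and interleukin 23 receptors (0.91 ± 0.14, adjusted p = 0.00895, limma), and Il2rb, described above as a neighbour of Csf2rb. Il1rap, the accessory chain of the interleukin 1 receptor, fell (-0.51 ± 0.10, adjusted p = 0.0245, limma). None of these 3 was called without either resistant library or with no filter on low values. More genes of the list rose without either control library. The numbers over all genes moved the same way. Il17ra, a chain of the interleukin 17 receptor, was among the most abundant genes not called (0.16 ± 0.15).

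Regulators of CSF ligand transcripts, the transcription factors and RNA-binding proteins known to act on them, were tested for 34 of 36 genes, and in limma 7 of these fell while none rose. At an unadjusted p under 0.05, 9 were lower and 2 higher. Limma voom called 8 lower and 0 higher, beside 771 lower and 645 higher of all tested genes. The median log2 fold change was -0.19, and of all tested genes 4.73% fell and 5.32% rose. Nfkbia, the inhibitor of NF-kappaB, averaged 2163 ± 212 normalized counts in resistant cells and 4717 ± 270 in control cells (-1.13 ± 0.12, adjusted p = 0.00173, limma). The transcription factor Ets2 (-0.81 ± 0.13), the NF-kappaB subunits Relb (-0.65 ± 0.12) and Nfkb1 (-0.54 ± 0.11), and Zfp36, which marks AU-rich transcripts such as that of Csf2 for decay (-0.58 ± 0.13), fell too. Fosl1 (-0.08 ± 0.11) and Khsrp (0.16 ± 0.10) were the most abundant not called. With no filter on low values 1 gene of this list fell. Fewer also fell without either resistant library, and more fell and rose without either control library. The numbers over all genes moved the same way.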

How the data were processed

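Per the submitters' processing notes, the authors used STAR, DESeq2 and the mm10 genome; versions and settings are not given in the sources used here. The deposited table holds log2 values, read here as log2 of a size-factor-scaled count plus 1. No header states this scale, but after undoing it 100% of values were whole multiples of their library's smallest step, within 0.01 reads, and that step was taken as 1 read. Normalized counts are those multiples in the authors' scaling. The test had been planned for unlogged values, to be put on this same scale.

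Symbols matched 55144 of 55385 identifiers, without their version. Coordinates and exon lengths are those of GENCODE M21 on GRCm38. The 14238 genes averaging 10 normalized counts or more entered limma 3.58.1 (R 4.3.3; moderated with a trend, no block), Benjamini-Hochberg adjusted over all of them at 0.05. The members and gene lists were chosen with earlier results of these data known. Named genes are the members; per list up to 5 called genes with the smallest p and the 2 most abundant not called; the called genes near the beta chain pair and up to 3 near another member; up to 3 abundant markers per cell type; and the 5 genes nearest to Csf2rb2. Some genes that this rule names are not reported here. Others are said to have been chosen after their values were seen. Alternatives were 2 other pseudocounts, 2 filters, 2 scalings, limma voom on recovered reads, robust moderation, a replicate block and leaving out each library, where the group left with 1 library is assumed to vary like the other. Their use on the genes near the pair was chosen after seeing the data. Motifs were searched in RefSeq promoters, which 6 of the 9 genes had. Coding sequences were aligned with Biopython 1.88, in a single global alignment. The fit was tested on simulated reads. The 95% intervals and the floor of 3 reads speak of counting error alone, because PCR copies cannot be told from separate molecules without molecular identifiers.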

Additional observations from a re-analysis of the deposited data

How the results depend on the processing

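The calls of Csf2rb, Csf2rb2 and Il3ra held in every alternative fit of all 4 libraries. These fits reuse the libraries whose contrast chose the family, so they add no separate support. Log2 fold changes of Csf2rb2 were 3.14 to 4.51 across settings and 4.18 to 4.60 with a library left out. With no filter on low values, 126 genes were called higher and 185 lower, 2 near the beta chain pair, 0 signalling genes higher, 0 other cytokine receptors higher and 0 lower, and 1 regulator lower. Leaving out a library gave 146 to 2074 genes higher and 234 to 1993 lower, 1 to 2 members lower, 4 to 12 genes near the pair higher and 0 to 1 lower. For signalling genes it gave 0 to 7 higher and 2 to 13 lower, for other cytokine receptors 0 to 5 higher and 0 to 4 lower, for related ligands and receptors 1 to 3 higher and 0 to 1 lower, and for regulators 0 to 5 higher and 1 to 14 lower. The low counts came without a resistant library and the high ones without a control library. In each such fit the spread was taken only from the group that kept 2 libraries. What part this had in the counts was not tested. The replicate numbers only name samples. Same-numbered libraries tended to deviate from their group means in opposite directions (r = -0.36 across genes), and differently numbered ones together. With a replicate block 628 genes were called higher and 585 lower. In that fit 3 members were called higher, Csf2 being added at 0.95, and 1 signalling gene was called higher. At these depths Csf1r, Csf2ra and Csf3r, with 0 to 8 reads per library, could not be compared.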

Other observations

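The surroundings of the other members were measured in the same way, and the counts below stand beside 5.32% of all tested genes called higher and 4.73% called lower. With so few genes near each member, nothing is read from them. Within 500 kb of Csf1, 3 of 19 tested genes fell and none rose in limma (3 lower and 1 higher at an unadjusted p under 0.05), among them the adhesion protein gene Amigo1 (log2 fold change -1.40 ± 0.15, SE, adjusted p = 0.00207, limma) and the glutathione transferase Gstm7 (-1.06 ± 0.26, adjusted p = 0.0429, limma). Near Csf2, 1 of 11 rose, the acyl-CoA synthetase Acsl6 (2.25 ± 0.45, adjusted p = 0.0226, limma). Near Csf3, 2 of 22 rose, and the chemokine receptor Ccr7, at 212 ± 57.9 normalized counts in resistant cells and 23.1 ± 2.68 in control cells (SD, n = 2 each), had the larger value (3.12 ± 0.29, adjusted p = 0.00108, limma). Near Csf1r, 2 of 12 rose: its next neighbour Pdgfrb, the receptor tyrosine kinase for PDGF (1.00 ± 0.20), and Camk2a (2.00 ± 0.29). Near Csf3r, 2 of 15 fell, the Argonaute gene Ago4 (-3.54 ± 0.53) and Sh3d21 (-1.43 ± 0.28). Ago4 had 1.02 and 3.22 normalized counts in resistant cells and 30.7 and 35.3 in control cells, so it passed the filter only through the control cells and its fitted value depends on the added count. Near Il3ra, which fell, 2 of 4 tested genes rose, the bicarbonate transporter Slc4a7 (0.61 ± 0.13) and Thoc7 (0.50 ± 0.11), and near Csf2ra, 1 of 8 fell, Grk5 (-0.76 ± 0.18).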
